A study of Bos taurus with 13 samples.

Results

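Interferon-stimulated genes were followed in the testes of 13 newborn bull calves, each measured on its own Affymetrix array. These genes are switched on when an interferon binds its receptor: type I interferons act through a complex that holds STAT2 and IRF9 and turns on antiviral genes, and interferon gamma induces IRF1 and turns on guanylate-binding proteins and the machinery that cuts and loads peptides for antigen presentation. Many genes answer to both signals. The testis is known for low immune surveillance of its germ cells, and its interstitium holds resident macrophages that can respond to interferons.

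The 41 genes of the list were named by symbol, and a gene was measured where a probe set listed its symbol and no other; 35 of the 41 genes, out of 18087 genes with a probe set of their own on the array, met this, each with 1 such probe set. The other 6, IFI44L, GBP4, BST2, TAP2, IFI16 and PARP9, had no such probe set and were not analysed here. The mothers were Angus cross cows offered a free-choice mineral supplement with selenium at 35 ppm, starting 4 months ahead of breeding and lasting through gestation. The selenium came from sodium selenite (ISe, inorganic, 5 calves), from the selenium yeast product Sel-Plex (OSe, organic, 4 calves) or from both in equal parts (Mix, 4 calves), so that every calf was exposed to added selenium and none served as an unsupplemented control. Testes were taken within 2 days of birth, and all 13 calves were different animals. Of 24 cows, 8 were assigned to each form, and the labels do not say how the sampled calves were chosen.

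The tissue carried the markers of testis: on the log2 scale AMH of Sertoli cells ran from 12.14 to 12.77, INSL3 of Leydig cells from 12.86 to 13.74 and DAZL of germ cells from 10.59 to 11.69. Macrophage and T cell markers were also measured, C1QB from 11.14 to 12.54 and CD3E from 9.88 to 10.65. One array stood apart: the median of OSe animal 2 was 7.74, while the other 12 arrays had medians from 7.61 to 7.65, and this array held the highest value for 24.4% of all 26773 probe sets. Of the 35 members, 34 had a mean above the 25th percentile of all probe sets (6.26), and IFIT2, with a mean of 4.78, did not. Values of different genes come from different probes and are not set against each other as levels.

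The most visible feature of these genes was a difference between single calves. ISe animal 1 had the highest value of all 13 calves for 21 of the 35 members, while it was the highest for 6.96% of all probe sets. The lowest values lay mainly in OSe animal 4 (11 members), ISe animal 4 (10) and Mix animal 2 (7), calves that were lowest for 7.71%, 5.54% and 9.02% of all probe sets. High and low calves were thus found within the same selenium group. The SD within groups had a median of 0.283 over the members against 0.172 over all probe sets, and 13 of the 35 lay above the 90th percentile of all probe sets. For 21 members the highest and the lowest calf were over 2-fold apart. The share of all probe sets with such a range is not given here, so this count describes the members only.

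**Figure D1:**
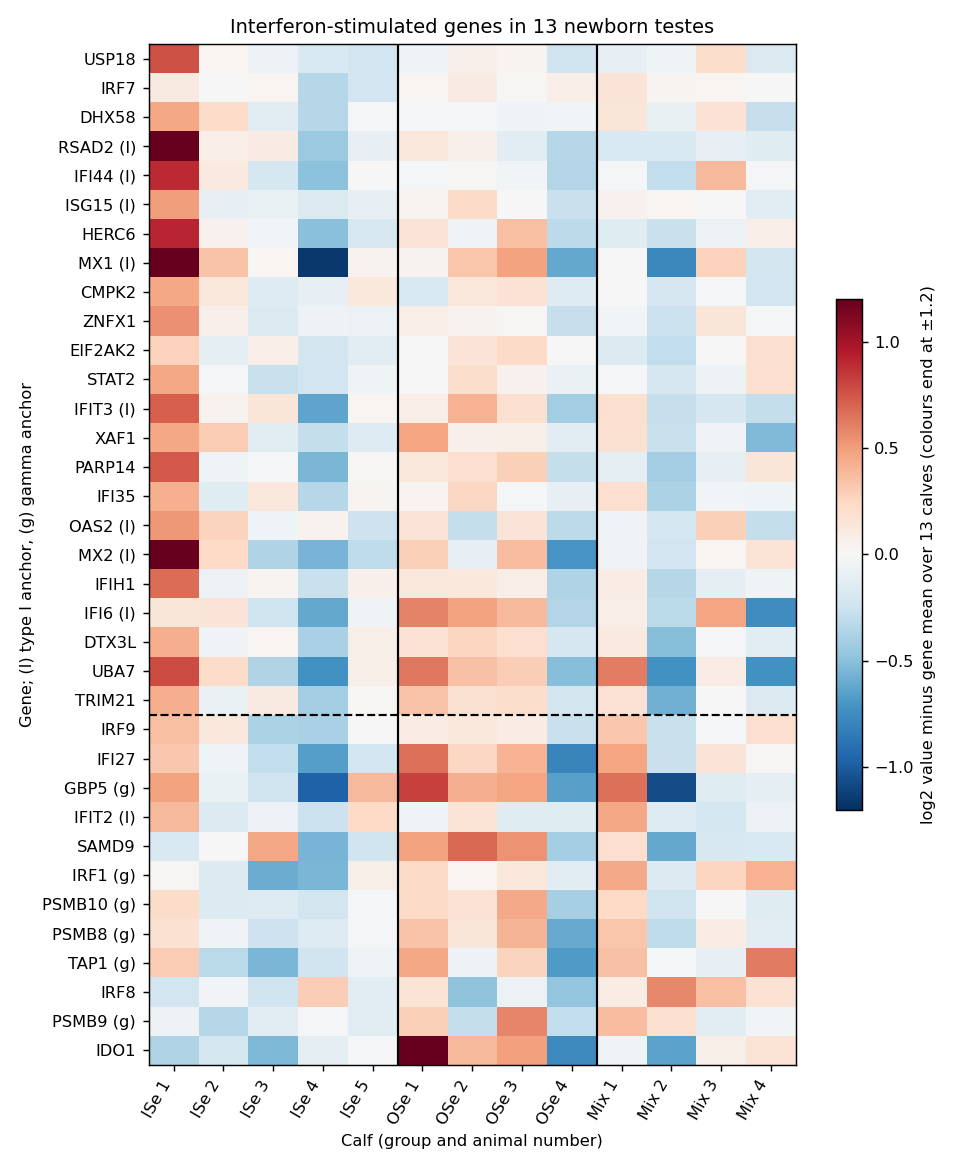
Each row is 1 of the 35 members and each column 1 calf; colour gives the log2 value minus the gene's mean over the 13 calves, vertical lines part ISe, OSe and Mix, and the dashed line parts the genes that covaried more with the type I anchor genes (above) from those that covaried more with the gamma anchor genes (below). ISe animal 1 is high for most rows above the dashed line, and ISe animal 4, OSe animal 4 and Mix animal 2 are low for most rows.

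Among the effectors of the antiviral response, the MX proteins, dynamin-like GTPases that trap viral particles, ranged widely. MX1 measured 10.06, 9.18, 8.86, 7.68 and 8.88 in ISe animals 1 to 5, 8.88, 9.17, 9.32 and 8.23 in OSe animals 1 to 4, and 8.85, 8.06, 9.11 and 8.62 in Mix animals 1 to 4. ISe animal 1 stood above all others and ISe animal 4 below all others, 5.19-fold apart, and the groups overlapped, with means of 8.93 ± 0.85 for ISe (SD, n = 5), 8.90 ± 0.48 for OSe (n = 4) and 8.66 ± 0.45 for Mix (n = 4). MX2 measured 9.52, 8.53, 7.93, 7.73 and 7.98 in ISe animals 1 to 5, 8.57, 8.19, 8.66 and 7.58 in OSe animals 1 to 4, and 8.24, 8.06, 8.31 and 8.45 in Mix animals 1 to 4. Its highest calf was again ISe animal 1, its lowest OSe animal 4, and the Mix calves lay close together inside the range of the other groups. RSAD2 (viperin), an enzyme that makes a chain-terminating nucleotide against viral polymerases, ran from 7.47 to 9.18, with ISe animal 1 and ISe animal 4 at the ends. IFI44 ran from 6.35 to 7.74, IFIT3 from 6.69 to 8.04 and OAS2, which makes the oligoadenylates that activate RNase L, from 6.51 to 7.35; ISe animal 1 was the highest calf for all 3. ISG15, the ubiquitin-like modifier that is attached to proteins during the interferon response, ran from 6.58 to 7.35, and IFIT2, the dim member, from 4.53 to 5.25.

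IFI6, a small membrane protein of the antiviral response, followed another order of calves. It measured 11.99, 11.99, 11.60, 11.23 and 11.79 in ISe animals 1 to 5, 12.44, 12.32, 12.22 and 11.49 in OSe animals 1 to 4, and 11.91, 11.52, 12.31 and 11.09 in Mix animals 1 to 4. Here 3 of the 4 OSe calves held high values together with Mix animal 3, Mix animal 4 was lowest, and the groups overlapped. IFI27, a related small hydrophobic protein, measured 9.08, 8.70, 8.46, 8.09 and 8.53 in ISe animals 1 to 5, 9.42, 9.003, 9.17 and 7.96 in OSe animals 1 to 4, and 9.22, 8.48, 8.91 and 8.76 in Mix animals 1 to 4. OSe animal 1 was highest and OSe animal 4 lowest, so both ends lay within 1 group. SAMD9, which restricts poxviruses, measured 8.42, 8.59, 9.06, 8.04 and 8.36 in ISe animals 1 to 5, 9.09, 9.29, 9.14 and 8.20 in OSe animals 1 to 4, and 8.80, 7.99, 8.41 and 8.42 in Mix animals 1 to 4. OSe animals 1 to 3 were among its 4 highest calves, with ISe animal 3, and OSe animal 4 lay low.

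Among further effectors, EIF2AK2 (PKR), the kinase that stops translation when double-stranded RNA is present, ran from 8.998 to 9.57, CMPK2, a nucleotide kinase of mitochondria, from 8.37 to 9.06, and IFI35 from 6.89 to 7.70. XAF1, which opposes the apoptosis inhibitor XIAP, ran from 6.74 to 7.74, and TRIM21, a ubiquitin ligase that binds antibody-coated particles inside cells, from 8.32 to 9.34. ISe animal 1 was the highest calf for all of these but XAF1, for which OSe animal 1 was highest.

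Sensors of foreign RNA shared the pattern of ISe animal 1. ZNFX1, a helicase that binds double-stranded RNA, measured 10.42, 9.93, 9.70, 9.81 and 9.80 in ISe animals 1 to 5, 9.95, 9.91, 9.89 and 9.60 in OSe animals 1 to 4, and 9.84, 9.62, 10.02 and 9.86 in Mix animals 1 to 4. ISe animal 1 stood 10.42 against 10.02 in the next calf, and the other 12 calves of all 3 groups overlapped. IFIH1 (MDA5), a sensor of long double-stranded RNA, ran from 8.32 to 9.34, and DHX58 (LGP2), its regulator, from 7.84 to 8.63. Both had their highest value in ISe animal 1.

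Enzymes of ISG15 and ADP-ribose conjugation varied in the same calves. UBA7, which activates ISG15 for conjugation, measured 9.04, 8.47, 7.89, 7.53 and 8.32 in ISe animals 1 to 5, 8.89, 8.60, 8.54 and 7.75 in OSe animals 1 to 4, and 8.87, 7.52, 8.34 and 7.52 in Mix animals 1 to 4. Values near the top were found in ISe animal 1, OSe animal 1 and Mix animal 1, values near the bottom in ISe animal 4, Mix animal 2 and Mix animal 4, and all 3 groups overlapped. USP18, which removes ISG15 and restrains the type I receptor, ran from 7.57 to 8.59, and HERC6, an ISG15 ligase in mouse, from 7.84 to 9.26. PARP14, an ADP-ribosyltransferase, ran from 8.10 to 9.38, and DTX3L, a ubiquitin ligase that works with PARP9, from 8.92 to 9.87. ISe animal 1 was the highest calf for all 5 enzymes.

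Transcription factors did not form 1 pattern. STAT2, which carries the type I signal to the nucleus, measured 9.91, 9.43, 9.19, 9.22 and 9.40 in ISe animals 1 to 5, 9.45, 9.66, 9.50 and 9.37 in OSe animals 1 to 4, and 9.43, 9.25, 9.39 and 9.66 in Mix animals 1 to 4. Apart from ISe animal 1, its values lay between 9.19 and 9.66 in all groups. IRF9, its DNA-binding partner, ran from 8.47 to 9.22, and IRF7, which drives interferon alpha genes, from 6.41 to 6.91, the narrowest range of all 35 members on the log2 scale. IRF1, a factor induced by interferon gamma, measured 10.08, 9.90, 9.47, 9.52 and 10.14 in ISe animals 1 to 5, 10.30, 10.09, 10.19 and 9.94 in OSe animals 1 to 4, and 10.52, 9.90, 10.32 and 10.48 in Mix animals 1 to 4. The 2 lowest values belonged to ISe animals 3 and 4 and 3 of the 4 Mix calves were the highest of all, with Mix animal 2 among the ISe values. IRF8, a factor of myeloid and lymphoid cells, measured 8.85, 9.04, 8.84, 9.37 and 8.94 in ISe animals 1 to 5, 9.24, 8.60, 9.01 and 8.60 in OSe animals 1 to 4, and 9.16, 9.65, 9.44 and 9.25 in Mix animals 1 to 4. Mix animals 2 and 3 were highest, OSe animals 2 and 4 lowest, and ISe animal 4 lay within the Mix range.

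Genes of the gamma type had other leading calves. GBP5, a guanylate-binding protein, measured 9.86, 9.30, 9.14, 8.40 and 9.76 in ISe animals 1 to 5, 10.20, 9.82, 9.85 and 8.72 in OSe animals 1 to 4, and 10.04, 8.30, 9.23 and 9.27 in Mix animals 1 to 4. OSe animal 1 and Mix animal 1 were highest, and Mix animal 2 and ISe animal 4 lowest, so that each group spanned most of the range. PSMB8, a catalytic subunit of the immunoproteasome, measured 10.22, 10.004, 9.80, 9.89 and 10.03 in ISe animals 1 to 5, 10.39, 10.19, 10.46 and 9.44 in OSe animals 1 to 4, and 10.38, 9.74, 10.14 and 9.91 in Mix animals 1 to 4. Its partner subunit PSMB10 measured 10.83, 10.45, 10.46, 10.39 and 10.60 in ISe animals 1 to 5, 10.84, 10.78, 11.06 and 10.21 in OSe animals 1 to 4, and 10.85, 10.37, 10.61 and 10.47 in Mix animals 1 to 4. Both were highest in OSe animal 3 and lowest in OSe animal 4, and the ISe and Mix calves lay between. PSMB9, the remaining inducible subunit, ran from 7.31 to 8.24, also with OSe animal 3 on top. TAP1, one chain of the transporter that moves peptides into the endoplasmic reticulum, measured 9.42, 8.79, 8.57, 8.88 and 9.06 in ISe animals 1 to 5, 9.58, 9.05, 9.38 and 8.43 in OSe animals 1 to 4, and 9.47, 9.10, 9.01 and 9.73 in Mix animals 1 to 4. Mix animal 4 was highest and OSe animal 4 lowest. IDO1, which degrades tryptophan and is strongly induced by interferon gamma, measured 5.99, 6.14, 5.80, 6.23 and 6.33 in ISe animals 1 to 5, 7.95, 6.74, 6.84 and 5.58 in OSe animals 1 to 4, and 6.29, 5.70, 6.42 and 6.51 in Mix animals 1 to 4. OSe animal 1 stood 7.95 against 6.84 in the next calf, and OSe animal 4 was lowest.

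**Figure D2:**
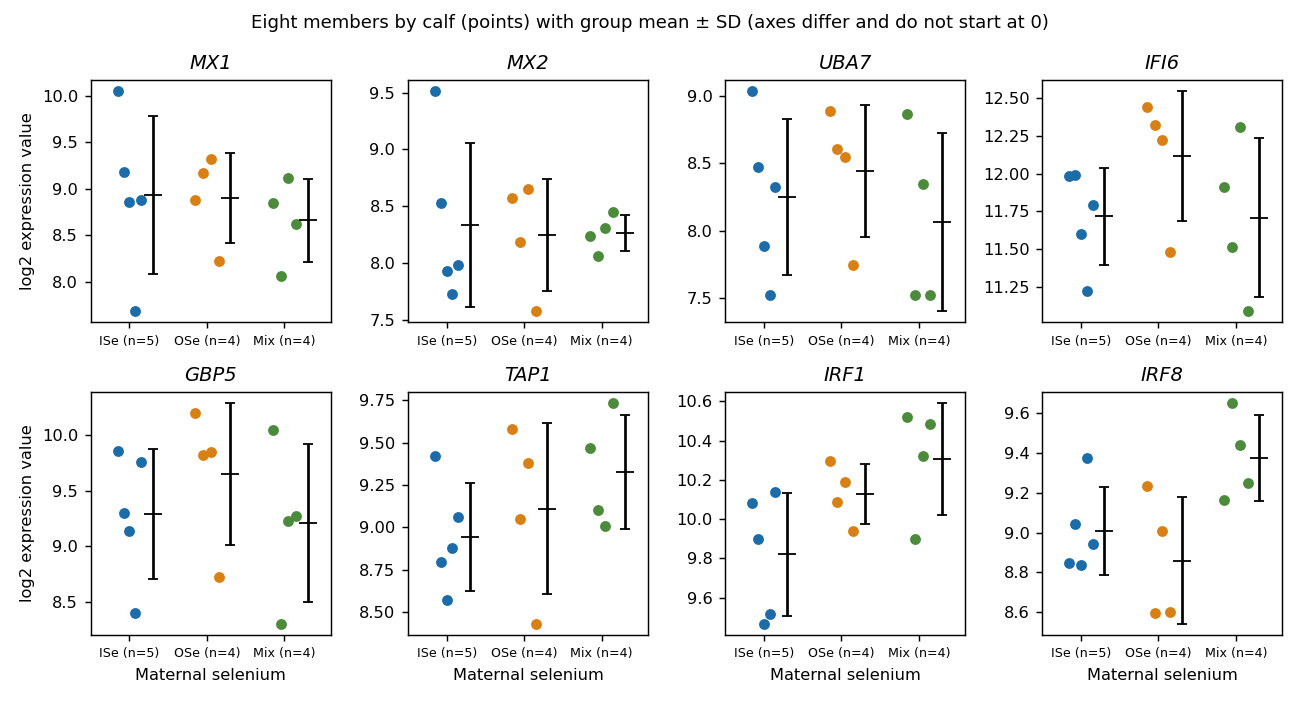
Log2 expression values of MX1, MX2, UBA7, IFI6, GBP5, TAP1, IRF1 and IRF8 (vertical axes, each with its own range) in ISe, OSe and Mix calves; points are calves and the bars give the group mean ± SD. In every panel the groups overlap, with ISe animal 1 alone at the top for MX1 and MX2.

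Covariation between calves was used to separate type I type from gamma type genes. To keep the selenium groups out of it, each value was taken as its deviation from the group mean, and Pearson's r was computed over the 13 calves; these values describe the calves and carry no test. The type I anchors were ISG15, MX1, MX2, IFI6, IFI44, IFIT2, IFIT3, OAS2 and RSAD2, and the gamma anchors IRF1, GBP5, PSMB8, PSMB9, PSMB10 and TAP1. The type I anchors varied together, with a median r of 0.701 over 36 pairs and 30 of these above 0.5, from MX1 with IFI44 (0.923) down to IFIT2 with OAS2 (0.00806). The gamma anchors had a median of 0.691 over 15 pairs and 13 above 0.5, from PSMB8 with PSMB10 (0.961) down to IRF1 with PSMB9 (0.150). Between the sets the median was lower, at 0.525 over 54 pairs, 31 of them above 0.5. Among all pairs of 14847 genes the median was 0.0352, and 10.02% of the pairs lay above 0.5.

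The 2 sets were only partly separate. Their mean deviations correlated at r = 0.720 (Spearman's rho 0.703, 13 calves), and at 0.754 without ISe animals 1 and 4, the 2 calves farthest from the median of the type I mean. Leaving out OSe animal 4 took the gamma median from 0.691 to 0.541, and leaving out ISe animals 1 and 4 together, a choice made after seeing the values, took the type I median from 0.701 to 0.550. Without the removal of group means the median between the sets was 0.414.

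**Figure D3:**
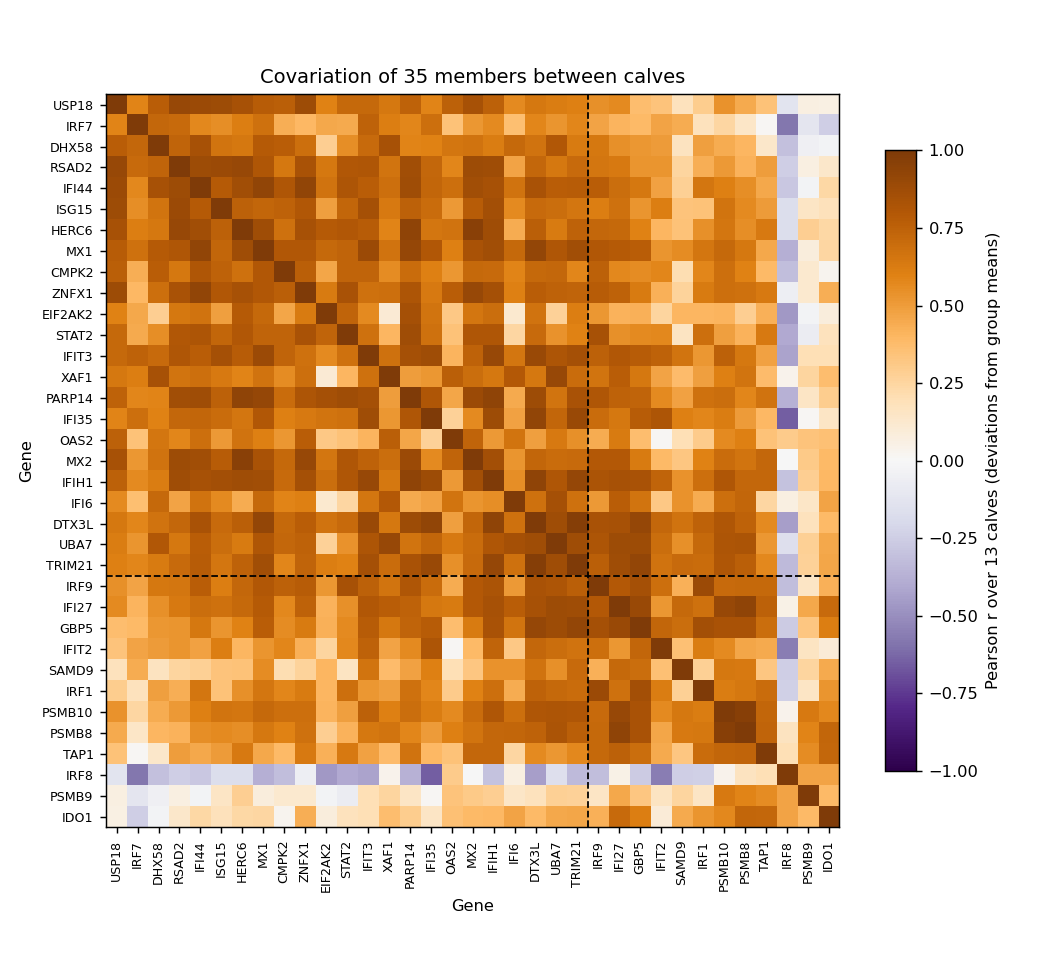
Pearson's r between each pair of the 35 members over 13 calves, computed from deviations from group means, with genes in the same order as in the plot of values by calf and dashed lines between the type I and the gamma side. Most pairs are positive on both sides and across them, and IRF8 is negative with 25 of the other 34 members.

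When each member was placed with the anchor mean it followed more closely, itself left out, 23 fell on the type I side and 12 on the gamma side. All 6 gamma anchors and 8 of the 9 type I anchors stayed with their own set; the exception was IFIT2 (0.521 with type I, 0.620 with gamma). USP18 was the gene farthest to the type I side (0.880 against 0.406), followed by IRF7 (0.661 against 0.204) and DHX58 (0.830 against 0.403). All 3 RNA sensors and all 5 conjugation enzymes fell on this side. On the gamma side IDO1 lay farthest (0.315 with type I, 0.707 with gamma), next to PSMB9 (0.180 and 0.479). IFI27 also followed the gamma anchors more (0.921) than the type I anchors (0.840), as did SAMD9 (0.585 and 0.477).

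IRF8 followed neither set, at -0.228 with type I and 0.0244 with gamma, and its place on the gamma side says only that the second value was larger. The side was a close matter for 8 members, whose values differed by less than 0.1, among them IRF9 (0.807 and 0.818), TRIM21 (0.858 and 0.825) and UBA7 (0.868 and 0.814). Without ISe animal 1, 5 members changed side (MX2, STAT2, GBP5, IFIH1 and SAMD9), and with Spearman's rho 3 did (MX2, STAT2 and IFIH1). Without OSe animal 4, SAMD9 and IFI27 changed to the type I side. IRF9, the closest case, changed side without any 1 of 6 calves, IFIT2 and IFI6 changed without Mix animal 3, IFIT2 also without Mix animal 1, TRIM21 without ISe animal 4 and UBA7 without Mix animal 4. Members that neighbour each other on the chromosome in the RefSeq gene table (assembly ARS-UCD2.0) were among the covarying pairs: r was 0.836 for MX1 and MX2, 0.882 for DTX3L and PARP14, 0.746 for IFIT2 and IFIT3, 0.740 for PSMB8 and TAP1, 0.645 for CMPK2 and RSAD2, and 0.558 for PSMB9 and TAP1. DTX3L with TRIM21 (0.973) was the closest pair of all.

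The mean deviation of the type I anchors, on the log2 scale relative to the mean over all calves, was 0.76 in ISe animal 1 and -0.47 in ISe animal 4, with the remaining ISe calves from -0.08 to 0.11. It was 0.14, 0.15, 0.14 and -0.39 in OSe animals 1 to 4 and 0.06, -0.27, 0.10 and -0.19 in Mix animals 1 to 4. Group means were 0.05 ± 0.45 for ISe (SD, n = 5), 0.01 ± 0.27 for OSe (n = 4) and -0.08 ± 0.18 for Mix (n = 4), each within 1 SD of the others. The gamma anchors stood at 0.19, -0.19, -0.32, -0.36 and 0.04 in ISe animals 1 to 5, at 0.40, 0.07, 0.38 and -0.46 in OSe animals 1 to 4 and at 0.40, -0.27, -0.005 and 0.10 in Mix animals 1 to 4. Mix animal 1 and OSe animals 1 and 3 were highest and OSe animal 4 lowest. The group means of the gamma anchors, -0.13 ± 0.24, 0.10 ± 0.40 and 0.06 ± 0.28 in the same order, differed by less than the spread between calves.

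**Figure D4:**
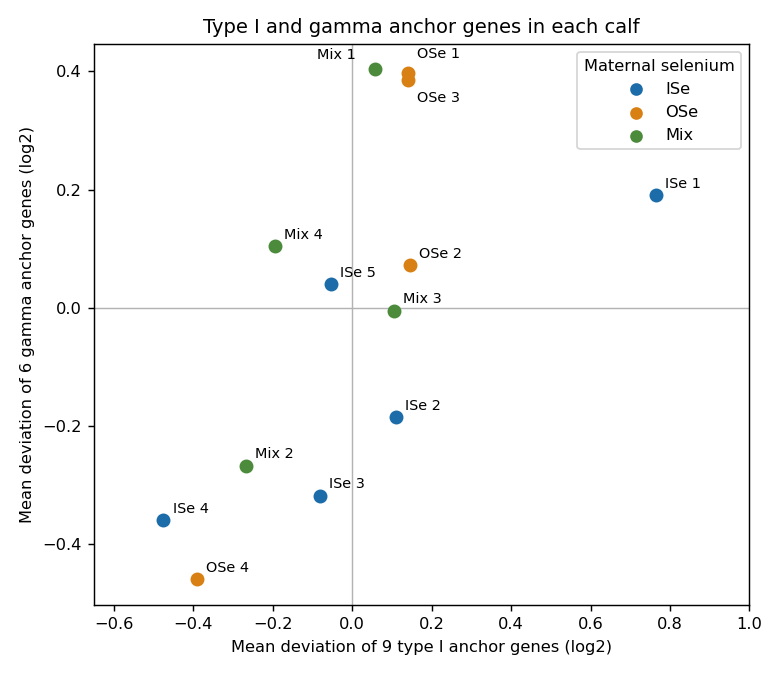
Mean log2 deviation of the 9 type I anchor genes (horizontal) and of the 6 gamma anchor genes (vertical) in each of the 13 calves, coloured by maternal selenium. ISe animal 1 lies far to the right at 0.76 with a gamma value of 0.19, while Mix animal 1 and OSe animals 1 and 3 hold the highest gamma values, from 0.38 to 0.40, with type I values from 0.06 to 0.14.

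Immune cell markers were set beside these values, since in whole tissue fewer cells of a type and less RNA per cell cannot be told apart. Of the 11 macrophage markers measured, 1 correlated above 0.5 with the type I mean and 2 with the gamma mean; their own mean deviation ran from -0.43 to 0.20 in ISe, -0.53 to 0.27 in OSe and -0.07 to 0.30 in Mix. Over all 13 calves the macrophage mean followed the type I mean at r = 0.168 (rho 0.209). Without ISe animals 1 and 4, left out as the 2 calves farthest from the median of the type I mean, it did so at 0.818. The T cell mean (8 markers, -0.19 to 0.11 in ISe, -0.29 to 0.14 in OSe and -0.20 to 0.26 in Mix) went from r = 0.139 (rho 0.319) to 0.721. The mean of 5 NK and cytotoxic markers (-0.11 to 0.09, -0.36 to 0.13 and -0.22 to 0.25) went from r = 0.212 (rho 0.275) to 0.813. ISe animal 1, highest for the type I genes, ranked 11 of 13 calves for each of these 3 marker means, at -0.24, -0.19 and -0.11. OSe animal 4, the calf with most of the lowest member values, was the lowest calf for all 3, at -0.53, -0.29 and -0.36. ISe animal 4, also low for the members, stood at 0.16, -0.03 and 0.08. The B cell mean (3 markers) turned from r = -0.365 (rho -0.0714) with the type I mean to 0.619 without ISe animals 1 and 4. The means of granulocyte, endothelial, Leydig, Sertoli, germ cell, peritubular myoid and red blood cell markers followed the type I mean at r from -0.216 (Leydig) to 0.206 (Sertoli), and without these 2 calves from -0.442 (Leydig) to 0.390 (germ cell). In all, 33 relations were computed among the anchor means and the lists of cell markers and pathway genes.

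The gamma mean followed the NK and cytotoxic markers at r = 0.699 (rho 0.593), which became 0.415 without OSe animal 4 and Mix animal 1, its 2 farthest calves. With T cell markers it stood at 0.509 (rho 0.418; 0.134 without these calves) and with macrophage markers at 0.252 (rho 0.0440; -0.189). None of these macrophage, T cell or NK markers had a mean at or below the 25th percentile of all probe sets. The part of immune cell content in the type I and gamma patterns was not tested.

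The form of maternal selenium was compared to ask whether it was reflected in these genes. None of the members differed by the adjusted test: the moderated F test of limma across the 3 forms found 0 of 35 members with an adjusted p under 0.05, where the share was 0.0% over all probe sets. The lowest adjusted p among members was 0.954, which limma gave to 11 of them. At an unadjusted p under 0.05 there were 2 members by limma, IRF8 (unadjusted p = 0.0205) and IRF1 (unadjusted p = 0.0301), where 4.5% of all probe sets had such a p. SAMD9 (limma unadjusted p = 0.121) and IDO1 (limma unadjusted p = 0.160) came next. The 3 comparisons that follow share calves, since each form enters 2 of them. The unmoderated linear model called 0 members and gave 1 with an unadjusted p under 0.05, and limma with a trended and robust prior called 0 and gave 2. The share of all probe sets at that level is not given for these 2 fits.

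OSe calves were set against ISe calves to compare the organic with the inorganic form. None of the 35 members passed limma's test (lowest adjusted p 0.9999; 0.0% of all probe sets were called in either direction), and 0 had an unadjusted p under 0.05, against 1.91% of probe sets higher and 0.706% lower at that level. By sign 21 of 35 lay higher in OSe, and 59.5% of all probe sets did; the median change was 0.06 against 0.02 over all genes. The gamma anchors had 6 of 6 higher (median 0.19; 0.07 without OSe animal 3 and 0.36 without OSe animal 4) and the type I anchors 2 of 9 (median -0.07). IDO1 had the smallest p, at 0.68 ± 0.34 (SE, 95% interval -0.06 to 1.42), and its difference was 0.29 without OSe animal 1 and 1.08 without OSe animal 4. IRF1 was at 0.31 ± 0.16 (-0.04 to 0.66) and SAMD9 at 0.43 ± 0.24 (-0.09 to 0.95), and SAMD9 was at 0.68 without OSe animal 4. Single calves decided the sign of the list: without ISe animal 1, 32 of 35 members and 8 of 9 type I anchors lay higher in OSe (median change 0.19 over the members), and without ISe animal 4, 15 of 35 (median -0.02). Without OSe animal 4 the counts were 26 of 35 members (median 0.15) and 5 of 9 type I anchors (median 0.08). In that fit 6 members had an unadjusted limma p under 0.05. The share of all probe sets in the same fit is not given here, so this count is not read as a result about the members. Without OSe animal 2, the array that stood apart, 20 of 35 members lay higher (median 0.02). The median was 0.02, 0.03 and 0.03 without OSe animal 1, OSe animal 3 and ISe animal 3.

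Mix calves were set against ISe calves to compare the mixture with the inorganic form. Again 0 of 35 members passed limma's test (lowest adjusted p 0.967), with 0.0% of probe sets called. At an unadjusted p under 0.05, 2 members lay higher, against 1.71% of probe sets, and 0 lower, against 2.0%. These were IRF1 at 0.49 ± 0.16 (SE, 95% interval 0.13 to 0.84, unadjusted p = 0.0106) and IRF8 at 0.37 ± 0.16 (0.03 to 0.70, unadjusted p = 0.0343), and for both the groups overlapped. TAP1 followed at 0.38 ± 0.23 (-0.12 to 0.88), or 0.25 without Mix animal 4. By sign, 10 of 35 members lay higher and 25 lower, against 51.5% and 48.5% of all probe sets, with a median of -0.07 against 0.01 over all genes. The type I anchors were lower in 9 of 9 (median -0.07) and the gamma anchors higher in 5 of 6 (median 0.15). Without Mix animal 1 the gamma anchors were higher in 3 of 6 (median 0.04). The lower values of the members and of the type I anchors rested on ISe animal 1, without which 26 of 35 members and 6 of 9 type I anchors lay higher in Mix, with median changes of 0.06 and 0.06. Without Mix animal 2, 18 of 35 members lay higher (median 0.02), and without ISe animal 4 the median was -0.15. Over the type I anchors the median was -0.19 without ISe animal 4, -0.18 without Mix animal 3 and -0.04 without Mix animal 2.

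Mix and OSe calves were compared last, the mixture against the organic form. As before, 0 of 35 members passed limma's test (lowest adjusted p 0.581; 0.0% of probe sets called). IRF8 was the only member with an unadjusted p under 0.05, higher in Mix by 0.52 ± 0.16 (SE, 95% interval 0.16 to 0.87, unadjusted p = 0.00756), while 2.69% of probe sets were higher and 5.83% lower at that level. The IRF8 values of the groups overlapped, since OSe animal 1 lay above Mix animal 1. Most immune cell markers also stood higher in Mix by sign. Granulocyte markers did in 4 of 4 (median change 0.41 against OSe and 0.40 against ISe), 1 of them with a mean at or below the 25th percentile. Their calf means ran from -0.40 to 0.03 in OSe and -0.21 to 0.12 in ISe. They were 0.71 and 0.56 in Mix animals 3 and 4, but -0.15 and 0.03 in Mix animals 1 and 2. B cell markers were higher in 3 of 3 (median 0.25 and 0.21). Macrophage markers were higher in 8 of 11 against OSe (changes from -0.84 to 0.49) and 9 of 11 against ISe. For T cell markers the counts were 7 of 8 and 5 of 8, and for NK and cytotoxic markers 4 of 5 and 3 of 5. The counts against OSe include OSe animal 4, the lowest calf for the macrophage, T cell and NK means. The median calf mean of the macrophage markers was -0.005 in Mix, 0.14 in OSe and 0.08 in ISe. For T cell markers it was 0.03, 0.003 and 0.05, and for NK and cytotoxic markers 0.05, 0.009 and 0.03. Mix animal 2, highest for IRF8, stood at -0.06, -0.20 and -0.22 for these 3 means. Mix animal 3, the next for IRF8, stood at 0.30, 0.06 and 0.08. The part of these cells in the IRF8 values was not tested. SAMD9 stood at -0.52 ± 0.25 (-1.07 to 0.02) and IFI6 at -0.41 ± 0.26 (-0.98 to 0.16), and without OSe animal 4 they stood at -0.77 and -0.62. In the fit without that calf 5 members had an unadjusted limma p under 0.05. The share of all probe sets in the same fit is not given here, so this count is not read as a result about the members. IFI6 was at -0.20 without Mix animal 4. By sign 12 of 35 lay higher and 23 lower in Mix, against 45.3% and 54.7% of all probe sets, with a median of -0.08 against -0.01 over all genes; it was -0.19 without OSe animal 4, -0.05 without OSe animal 2, -0.05 without OSe animal 1, -0.04 without OSe animal 3, -0.13 without Mix animal 1 and -0.02 without Mix animal 2. No member had groups without overlap in any of the 3 comparisons, where such groups were found for 0.523% of probe sets higher and 0.22% lower in OSe against ISe, 0.549% and 0.471% in Mix against ISe, and 1.53% and 2.71% in Mix against OSe. The half-width of the 95% interval of a member's difference ran from 0.197 to 0.865 on the log2 scale, so that differences inside these widths could not be told from 0 with these calves.

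**Figure D5:**
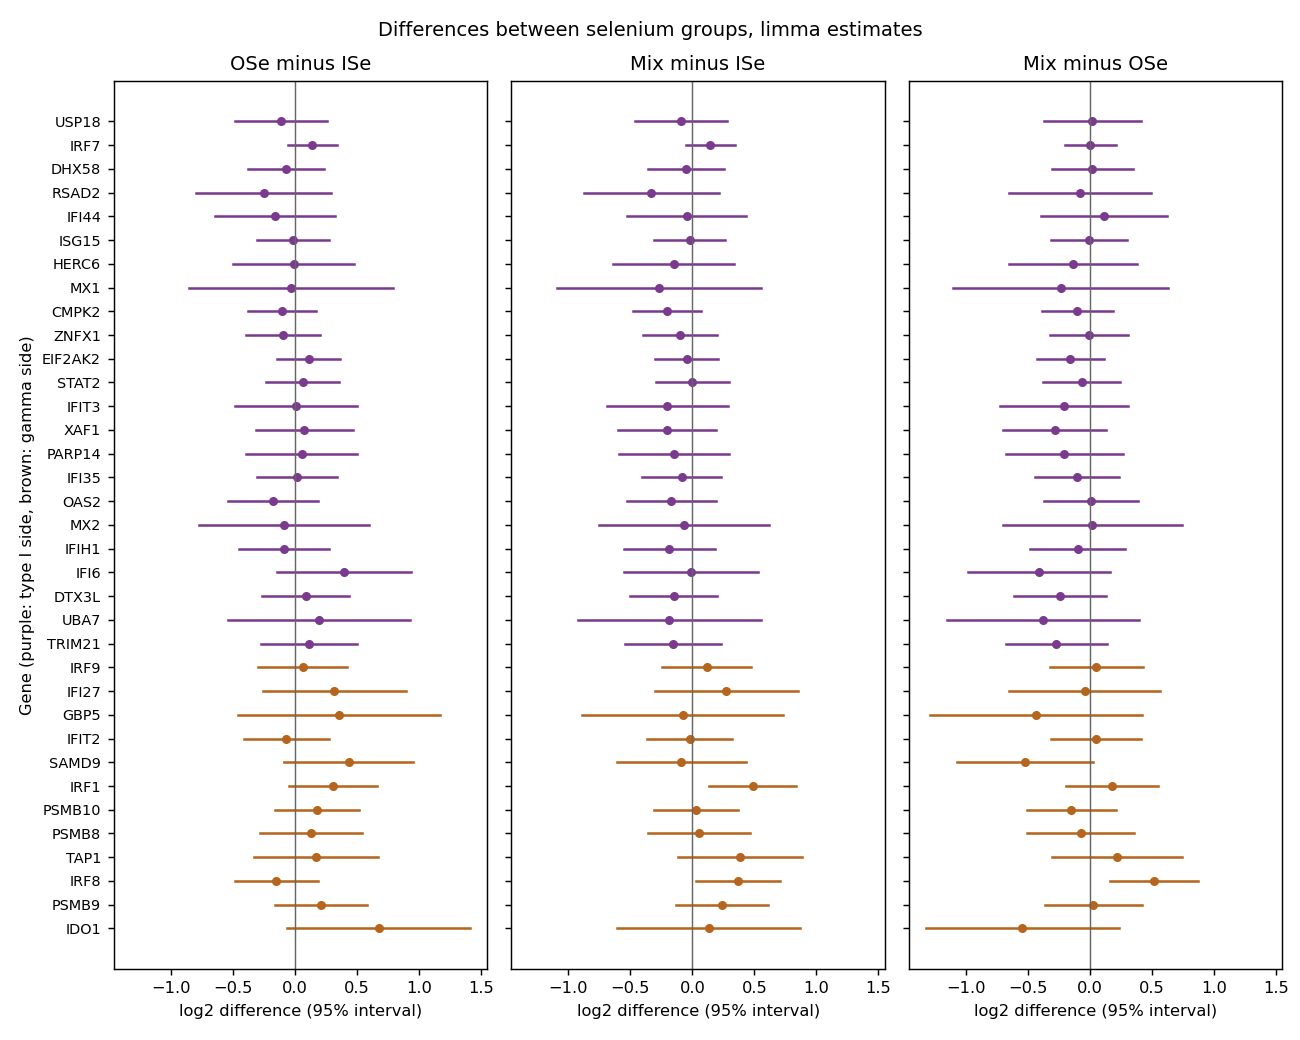
Log2 difference (point) and its 95% interval (line) from limma for each of the 35 members in OSe minus ISe, Mix minus ISe and Mix minus OSe; purple marks the type I side and brown the gamma side. Most intervals cross 0, and those that do not, IRF1 and IRF8 in Mix minus ISe and IRF8 in Mix minus OSe, did not pass the adjusted test.

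Other genes of the interferon pathway were read from lists outside the 35 members, and 0 of 49 measured genes passed limma's test in the F test or in any of the 3 comparisons. Of 9 receptor and kinase genes, 0 had an unadjusted p under 0.05 and 0 correlated above 0.5 with either anchor mean; the 4 with the smallest F test p were the kinase TYK2 (8.71 to 9.24 over 13 calves), the type I receptor chain IFNAR2 (8.71 to 9.52), the lambda receptor chain IFNLR1 (6.39 to 6.99) and the gamma receptor chain IFNGR1 (9.74 to 10.12). The interferons themselves were dim: IFNB1 ran from 3.18 to 4.19 and IFNG from 5.16 to 6.47, 4 of the 6 measured interferon genes had a mean at or below the 25th percentile, and none correlated above 0.5 with an anchor mean. Absence of signal in a dim probe set does not show absence of the transcript.

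Among 14 sensors and adaptors, RIGI, the sensor of uncapped viral RNA, and ZBP1, a sensor of Z-form nucleic acid, followed the type I mean at 0.877 and 0.877. TLR3, the endosomal receptor of double-stranded RNA, measured 9.11, 8.72, 9.05, 8.51 and 8.85 in ISe animals 1 to 5, 9.05, 9.37, 8.84 and 8.98 in OSe animals 1 to 4, and 8.72, 8.27, 8.64 and 8.22 in Mix animals 1 to 4. All 4 Mix calves lay below all 4 OSe calves, a difference of -0.60 ± 0.16 (SE, unadjusted p = 0.00232, limma adjusted p = 0.581), and the ISe calves overlapped both groups. It was the only gene of this list with an unadjusted p under 0.05, in limma's F test (unadjusted p = 0.00729), in Mix minus OSe and in Mix minus ISe (-0.39 ± 0.15, unadjusted p = 0.0229). At that level lay 4.5% of all probe sets in the F test, and lower in Mix 5.83% against OSe and 2.0% against ISe. Groups without overlap, lower in Mix than in OSe, were found for 2.71% of probe sets. TLR9 (6.02 to 6.62), CGAS (6.68 to 7.16) and MAVS (9.43 to 9.90) came next by p.

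Of 8 further transcription factors, NLRC5, CIITA and BATF2 followed the gamma mean at 0.910, 0.808 and 0.804; NLRC5 and CIITA are the coactivators of class I and class II histocompatibility genes. CIITA was the only one with an unadjusted p under 0.05, higher in OSe than in ISe by 0.32 ± 0.15 (SE, unadjusted p = 0.0489, limma adjusted p = 0.9999), or 0.16 without OSe animal 1. At that level 1.91% of all probe sets lay higher in OSe than in ISe. IRF4 ran from 6.94 to 7.67, STAT3 from 10.66 to 11.52 and IRF2 from 10.48 to 10.87.

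Of 12 inhibitors of the pathway, SOCS3, a feedback inhibitor of JAK kinases, measured 7.15, 7.05, 7.20, 6.96 and 6.92 in ISe animals 1 to 5, 7.04, 7.22, 7.33 and 7.25 in OSe animals 1 to 4, and 7.15, 7.42, 7.46 and 7.36 in Mix animals 1 to 4. In all, 3 of the 4 Mix calves lay above all ISe calves, at a difference of 0.29 ± 0.09 (SE, unadjusted p = 0.00703, limma adjusted p = 0.967). PIAS3, an inhibitor of STAT3, differed in Mix minus ISe by -0.24 ± 0.10 (SE, limma unadjusted p = 0.0259), with groups that overlapped. SOCS1, the feedback inhibitor of both interferon receptors, lay higher in Mix than in OSe by 0.24 ± 0.10 (SE, limma unadjusted p = 0.0394), with no overlap. TRIM28, a corepressor, ran from 10.55 to 10.85 with all 4 Mix calves below all ISe and OSe calves (limma unadjusted p = 0.0520 and 0.130). Its highest Mix calf was at 10.65 and its lowest OSe calf at 10.66. TRIM24, a cofactor of nuclear receptors, had all 4 Mix calves (10.85 to 10.97) below all 4 OSe calves (10.98 to 11.39, limma unadjusted p = 0.122). Of all probe sets, 1.53% lay higher and 2.71% lower without overlap in Mix against OSe, and 0.471% lower in Mix against ISe. At an unadjusted p under 0.05, 1.71% lay higher and 2.0% lower in Mix against ISe, and 2.69% higher in Mix against OSe. SOCS3 covaried with neither set, at 0.178 with the type I mean and -0.340 with the gamma mean, while the phosphatase PTPN2 followed both (0.761 and 0.744).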

How the data were processed

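RNA from 13 testes was measured on Affymetrix bovine arrays. For every array the authors deposited 1 log2 value per probe set, and that scale was inferred from the range of 2.07 to 14.6. How probes were summarised, corrected for background, centred and normalized is not given in the sources used here. GCOS 1.2 and Partek 6.4 were named without a role, per the submitters' processing notes. Biotin-labelled cRNA was prepared with the use of an oligo(dT) primer, per the labels' protocols. Scanner files were not used here, so signal over background is unknown; precision is limited by the number of arrays. The labels give no slide, scan or sampling batch.

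Groups came from the sample titles. Of 26773 probe sets, 18550 listed exactly 1 gene symbol, 595 several and 7628 none, by the platform annotation; of 18166 with a single gene identifier, 17996 matched the RefSeq gene table and 0 symbols changed. For a gene with several probe sets, the one with the highest mean was used. All 13 arrays entered 1 limma 3.58.1 fit (R 4.3.3) with a mean per group and empirical Bayes moderation, with two-sided p-values that were Benjamini-Hochberg adjusted over all 26773 probe sets, with a threshold of 0.05. Changes carry standard errors (SE) and group means standard deviations (SD). Correlations were computed with NumPy 2.4.6 under Python 3.11.15 and figures with matplotlib 3.10.9. The limma and covariation steps were tested on simulated data. The members, lists and anchor genes were chosen with earlier results of these data known. Values per calf were given for the members with the smallest p (4 in the F test, 3 in each comparison), the 6 with the largest SD and the 6 with the highest mean; pathway genes were named by F test p, up to 4 per list, beside those with an unadjusted p under 0.05, groups that did not overlap or a high correlation, which were chosen after their values were seen. Alternatives were quantile normalization, median centring, a filter at the 25th percentile, the mean over probe sets, a replicate block, an unmoderated model, a trended and robust prior, and leaving out each calf. The groups share no animals, and a number shared between titles names different calves. Deviations from group means of same-numbered arrays correlated from -0.151 to 0.101 over 12 pairs.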

Additional observations from a re-analysis of the deposited data

Results flagged for a closer look

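In 105 tests of a gene within a selenium group, Dixon's test at the 95% level marked 6 single calves as far from the rest of their group, and chance marks about 1 in 20 groups. ISe animal 1 was marked as high for ISG15 (7.35 against 6.68 to 6.77 in the other ISe calves) and for USP18 (8.59 against 7.59 to 7.84). OSe animal 4 was marked as low for IFI44 (6.49 against 6.81 to 6.86 in the other OSe calves), IRF9 (8.59 against 8.95 to 8.99) and IFIH1 (8.32 against 8.75 to 8.81). Mix animal 1 was marked as high for IRF7 (6.91 against 6.76 to 6.78 in the other Mix calves). These genes covary between calves, so the marks are not independent of each other. No label names an infection, an illness or a sampling batch for any calf, and the cause of the differences between calves was not tested.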

How the results depend on the processing

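No member and no pathway gene was called in the F test or in a comparison under any alternative, the replicate block included (0 called; 1, 2, 2 and 4 members with an unadjusted p under 0.05 in the F test, OSe minus ISe, Mix minus ISe and Mix minus OSe under the block, against 2, 0, 2 and 1 without it). ISe animal 5 has no partner under the block. Samples with the same number were no more alike than others in their deviations from group means. The 12 such pairs had correlations with a median of -0.00577, and 44 pairs with different numbers one of 0.0042. Whether same-numbered samples shared handling cannot be read from these values, since the labels name no batch. The median member change in OSe minus ISe, 0.06 in the main fit, was 0.04 with array median centring (19 of 35 higher) and 0.03 with quantile normalization (21 of 35 higher). Under these 2 settings it was -0.07 and -0.06 in Mix minus ISe and -0.06 and -0.05 in Mix minus OSe. Leaving out each calf moved the median member change between -0.02 to 0.19 in OSe minus ISe, -0.15 to 0.06 in Mix minus ISe and -0.19 to -0.02 in Mix minus OSe. It moved the median correlation between 0.601 to 0.740 for type I anchors, 0.541 to 0.734 for gamma anchors and 0.462 to 0.587 between them, and the number of members on the type I side between 22 and 25. A correlation was taken as moved at a change of 0.1. The median between the sets moved to 0.414 with group means kept, and the type I median to 0.550 without ISe animals 1 and 4; the cause was not tested. Counts at an unadjusted p under 0.05 ran from 0 to 7 in the F test and from 0 to 6, 1 to 2 and 1 to 5 in the 3 comparisons when 1 calf was left out. The shares of all probe sets in the same fits are not given here, nor those under the block. These counts are therefore not read as results about the members. None of the genes given with a difference and its SE changed sign in that comparison under any alternative. Other members did change sign when single calves were left out.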

Other observations

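Outside the 35 members, the genes that followed the type I anchor mean most closely over the 13 calves, in deviations from group means and among 14108 genes, were EPSTI1 (r = 0.947), the inflammatory caspase CASP4 (0.931), VAMP1 (0.928), TRANK1 (0.921), RTP4 (0.906), the cattle oligoadenylate synthetase OAS1Y (0.897), RIGI (0.877) and ZBP1 (0.877). OAS1Y belongs to a family of near-identical genes, and its probe set was not taken as specific to 1 copy. The log2 values of OAS1Y ran from 8.38 to 10.01. These values describe likeness in 13 calves and carry no test.

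The genes closest to the gamma anchor mean were the autophagy receptor SQSTM1 (r = 0.940), the tryptophanyl-tRNA synthetase WARS1 (0.917), PLAC8A (0.915), NLRC5 (0.910), GBP1 (0.910), the chemokines CXCL10 (0.879) and CXCL11 (0.873), which attract T cells, and the complement protease C1R (0.864). CXCL11 ran from 7.72 to 11.03 and CXCL10 from 9.21 to 11.32 on the log2 scale. SQSTM1 varied little, from 10.67 to 10.96, and followed the type I mean at 0.524.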
